A study of Danio rerio with 6 samples.

Results

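The genes described here copy DNA. They were taken from the gene table by the stem of their symbol (*mcm*, *orc*, *gins*, *rfc*, *rpa*, *prim*, *pola*, *pold*, *pole*, *cdc6*, *cdc7*, *cdc45*, *cdt1*, *gmnn*, *pcna*, *rrm1*, *rrm2*, *tyms*, *dhfr*, *lig1*, *fen1*, *chaf1* and *uhrf1*), with no measured value used. The stems from *mcm* to *pole* had to be followed by a digit. The rule found 59 of the 30111 genes. It left out *pole* itself, the catalytic subunit of polymerase epsilon, and *mcmbp*, which are both in the gene table. All 59 are among the 27018 genes of that table that the lncRNA table does not hold, called mRNAs here. For 4 of them the stem matches a gene of another kind: *cdc73* (a subunit of the Paf1 transcription elongation complex), *mcm3ap* (GANP, an mRNA export factor), *uhrf1bp1* and *uhrf1bp1l*. They were kept and are given last, and 55 genes remain without them.

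RNA was measured in whole embryos of the wild-type AB line at T1 (10 hpf, hours post fertilization, the end of gastrulation), T2 (24 hpf) and T3 (36 hpf), with 2 libraries per stage. The embryos carried no transgene and received no treatment. The study divided 100 embryos of each stage at random into 2 groups, and no source used here says that these came from separate clutches, so the *p* values speak of how far these libraries scatter, and that scatter may be technical. Levels are given as RPKM, the reads of a gene divided by its exon length and by the reads counted in all genes of the library. In RNA of whole embryos, fewer cells of a type and less RNA per cell cannot be told apart.

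DNA replication starts at origins bound by the origin recognition complex (ORC). With Cdc6 and Cdt1, ORC loads the ring-shaped helicase MCM2-7 before S phase, a step called licensing, and geminin (*gmnn*) binds Cdt1 and keeps origins from being licensed again in the same cycle. The kinase Cdc7, Mcm10, Cdc45 and the GINS complex then turn the loaded rings into moving helicases. Primase and polymerase alpha start the strands, RFC loads the sliding clamp PCNA, polymerases delta and epsilon extend them, RPA covers the exposed strands, and Fen1 and DNA ligase I join the Okazaki fragments. Early zebrafish embryos divide in rapid cycles that run on maternal stores. Cycles lengthen around the start of zygotic transcription, and in the later embryo differentiating cells such as muscle fibres leave the cycle while progenitors continue.

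Between 43611332 and 51846237 reads per library were counted in genes, and a replication gene held between 14 and 33744 of them in a library. At these depths 3 reads on a transcript of 1 kb equal 0.0579 to 0.0688 RPKM, and the intervals of such counts cover counting error only. The libraries followed their stage labels. The list of gastrula genes made up 0.0297% ± 0.0067 (SD, n = 2) of all reads counted at T1 and 0.0012% ± 6.43e-05 at T3, whereas the list of muscle genes held 0.264% ± 0.061 at T1, then 3.34% ± 0.27 at T2, then 7.76% ± 0.50 at T3. The T1 libraries differed from each other more than those of the other stages. The SD between libraries of the log2 values of the 59 genes was 0.18 at T1, then 0.10 at T2, then 0.08 at T3. It was taken as the SD over the genes of the replicate difference, divided by the square root of 2. A shift shared by all of the genes is left out of it. RPKM levels of 12 genes are uncertain against other genes, since the length used for them adds up exons on more than 1 sequence of the assembly (*gmnn*, *cdc6*, *orc1*, *rrm2b*, *rfc1*, *rfc3*, *pold1*, *pole3*, *lig1*, *chaf1a*, *mcm3l* and *mcm6l*), and the stage comparisons use the same length throughout. Of the 59 genes, 44 had more RNA in T1 replicate 1 than in T1 replicate 2, and the median difference was 0.17 on the log2 scale, against 0.06 over 11894 mRNAs of at least 1 RPKM. In T1 replicates 1 and 2 gastrula genes held 0.0250% and 0.0345% of the reads and muscle genes 0.307% and 0.221%. Neuron genes held 0.0270% and 0.0189%, and neural progenitor genes 0.110% and 0.120%. A list of maternal genes held 0.0062% and 0.0110%. Whether the T1 libraries differ in developmental age was not tested.

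The results showed that the replication genes together took a smaller share of the RNA at each later stage. Their share of the reads in genes was 0.743% ± 0.032 (SD, n = 2) at T1, then 0.634% ± 0.013 at T2, then 0.451% ± 0.0018 at T3, and the T3 mean was 60.7% of the T1 mean. The decrease differed between groups of genes, and differences between the groups were not tested. Licensing genes ended at 32.3% of their T1 share and the MCM2-7 group at 47.6%. The polymerase and primase group ended at 77.9%, the clamp and its loader at 80.5% and the genes of nucleotide supply at 95.4%. The share of nucleotide supply was 0.0318% ± 0.0056 at T1 and 0.0304% ± 0.0006 at T3. Summed shares follow the most abundant genes, here *pcna* for the clamp and *rrm1* for nucleotide supply. The median log2 fold changes from T1 to T3 were -1.60, -0.89, -0.38, -0.31 and -0.44 in the order of these groups. Muscle and neuron genes took up part of the later libraries, as their shares show. Counted over the reads outside those lists, a choice made after the data were seen, the share of the replication genes was 0.745% ± 0.032 at T1, then 0.656% ± 0.012 at T2, then 0.49% ± 0.00066 at T3, and the T3 mean was 65.8% of the T1 mean.

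**Figure D1:**
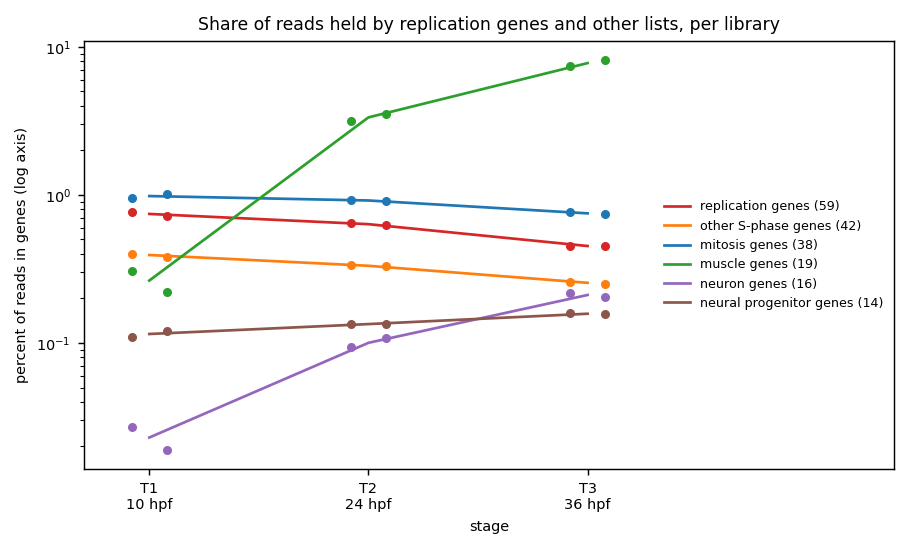
Share of all reads in genes (percent, log axis) held by the 59 replication genes and by 5 other gene lists at T1, T2 and T3; points are libraries and lines join stage means. The replication genes went from 0.743% to 0.451% while the muscle genes went from 0.264% to 7.76%.

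The order of the 3 stage means was T1, T2, T3 from high to low in 39 of the 59 genes. In 16 genes T2 was the highest and T3 the lowest stage, among them *pcna*, *rfc1*, *rfc3*, *rfc4*, *rfc5*, *pold1*, *pold2*, *pold3*, *prim2*, *rpa2*, *rpa3* and *rrm2*. In *orc5*, *rrm1* and *tyms* T1 was the lowest stage, and in *uhrf1bp1l* T2 was. These orders compare means, and many neighbouring stages did not differ beyond the spread of the libraries. With each library centred on its median over all mRNAs tested, T2 lay above T1 in *orc5*, *pold1*, *pold2*, *rfc1*, *rrm1* and *tyms* alone.

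Each pair of stages was then compared to find which RNA levels differed, with limma on log2(RPKM + 0.5) over all mRNAs above a low filter. A gene is said to have fallen or risen where its adjusted *p* was under 0.05, and to have passed the fold threshold where its log2 fold change was also beyond 1 in size. The 3 comparisons share libraries and are not independent of each other. All 59 genes entered each of them.

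From T1 to T2, 13 replication genes fell and 3 rose (*orc5*, *rfc1* and *tyms*), against 14.1% of all mRNAs tested that fell and 24% that rose. Of the 12419 mRNAs with a mean above 2 RPKM, which hold 57 of the 59 genes, 20.1% fell, so the share that fell is near this background. Both T2 libraries lay below both T1 libraries in 34 of the 59, against a smaller share, 31.8%, of all mRNAs. None passed the fold threshold in either direction, which 3.45% of all mRNAs did downward and 12.8% upward. With centring on the median of all mRNAs 5 genes passed it downward, near the share of all mRNAs, of which 2070 of 23028 did. With that centring 35 of the 59 fell and 0 rose. The share of all mRNAs that fell under it was not counted. By the limma test of the deposited values, 22 of the 59 had an unadjusted *p* under 0.05 downward and 5 upward. The shares of all mRNAs at that *p* were not counted in any comparison, so these counts have no background beside them. The median log2 fold change of the 59 genes was -0.25, and that of all 23028 mRNAs was 0.08. The genes that fell were *cdt1*, *gmnn*, *cdc6*, *mcm10*, *mcm3*, *mcm6*, *mcm3l*, *mcm9*, *orc3*, *cdc45*, *pole4*, *mcm3ap* and *cdc73*. The counts of genes that fell and rose changed whichever single library was left out. The lone library of a stage is then assumed to vary like the other stage. The median log2 fold change of the 59 genes was -0.20 without T1 replicate 1 and -0.24 without T1 replicate 2. It was -0.25 without T2 replicate 1 and -0.20 without T2 replicate 2.

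From T2 to T3, 48 replication genes fell and none rose, where 25.5% of all mRNAs fell and 18% rose; none had an unadjusted *p* under 0.05 upward in limma either. The median log2 fold change was -0.45, with all values from -1.06 to 0.04, and that of all 23161 mRNAs was -0.08. Of the 59 genes, 56 had both T3 libraries below both T2 libraries, against 44.7% of all mRNAs, and none had them above, against 29.9%. Among the 12431 mRNAs with a mean above 2 RPKM 35.4% fell. With all 6 libraries in the fit 31 of the 59 genes fell. The fold threshold was passed by *gmnn* and *rrm2b*, and none passed it upward, against 2.11% and 4.03% of all mRNAs. Without T2 replicate 1 *rrm2b* was at -0.90 and 1 gene was called, with a pseudocount of 1 it was at -0.98, and with quantile normalization *gmnn* was at -0.97. The other falls of this step were smaller than the threshold.

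From T1 to T3, 40 replication genes fell and 2 rose (*orc5* and *tyms*), where 24.6% of all mRNAs fell and 29.3% rose. The fold threshold was passed downward by 13 genes, *gmnn*, *cdt1*, *mcm3*, *orc3*, *rrm2b*, *rfc2*, *mcm10*, *mcm7*, *cdc6*, *mcm6*, *orc6*, *mcm9* and *orc1*, against 8.76% of all mRNAs, and upward by none, against 17.2% (2 of the 59 had an unadjusted *p* under 0.05 upward in limma). The T3 libraries lay below those of T1 in 49 genes and above them in 2, against 38.6% and 40.8% of all mRNAs. The median log2 fold change was -0.69 and that of all 23133 mRNAs was 0.01. Without T3 replicate 1 or 2 the count of genes that fell was 23 or 21 and none rose. Among the 12430 mRNAs with a mean above 2 RPKM, which hold 57 of the 59 genes, the median was -0.15 and 33.8% fell. Of these mRNAs 12.2% passed the fold threshold downward.

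The scaling moved these values. Centring on the median of all mRNAs moved the median of all fold changes from 0.08 to -0.25 from T1 to T2 and from 0.01 to -0.34 from T1 to T3, and 33 replication genes then passed the fold threshold from T1 to T3. Over all mRNAs the split of calls from T1 to T3, 3968 higher and 2026 lower, became 2879 and 4177 with that centring and 3113 and 2888 with quantile normalization. Relative to the median of all mRNAs, the median replication gene was at -0.33 from T1 to T2 and -0.70 from T1 to T3 in the deposited values. Centring cannot change this distance, since it moves all genes of a library alike. With quantile normalization the distance was -0.09 and -0.40.

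**Figure D2:**
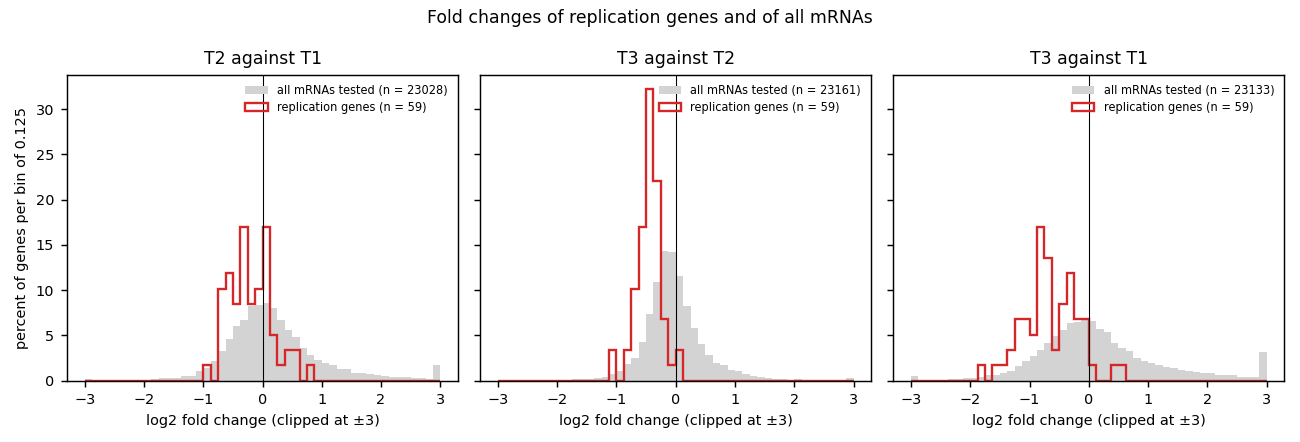
Distribution of log2 fold changes in the 3 comparisons, in percent of genes per bin, for all mRNAs tested (grey) and for the 59 replication genes (red line). The replication genes lie to the left of the mRNAs, with medians of -0.25, -0.45 and -0.69 against 0.08, -0.08 and 0.01.

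**Figure D3:**
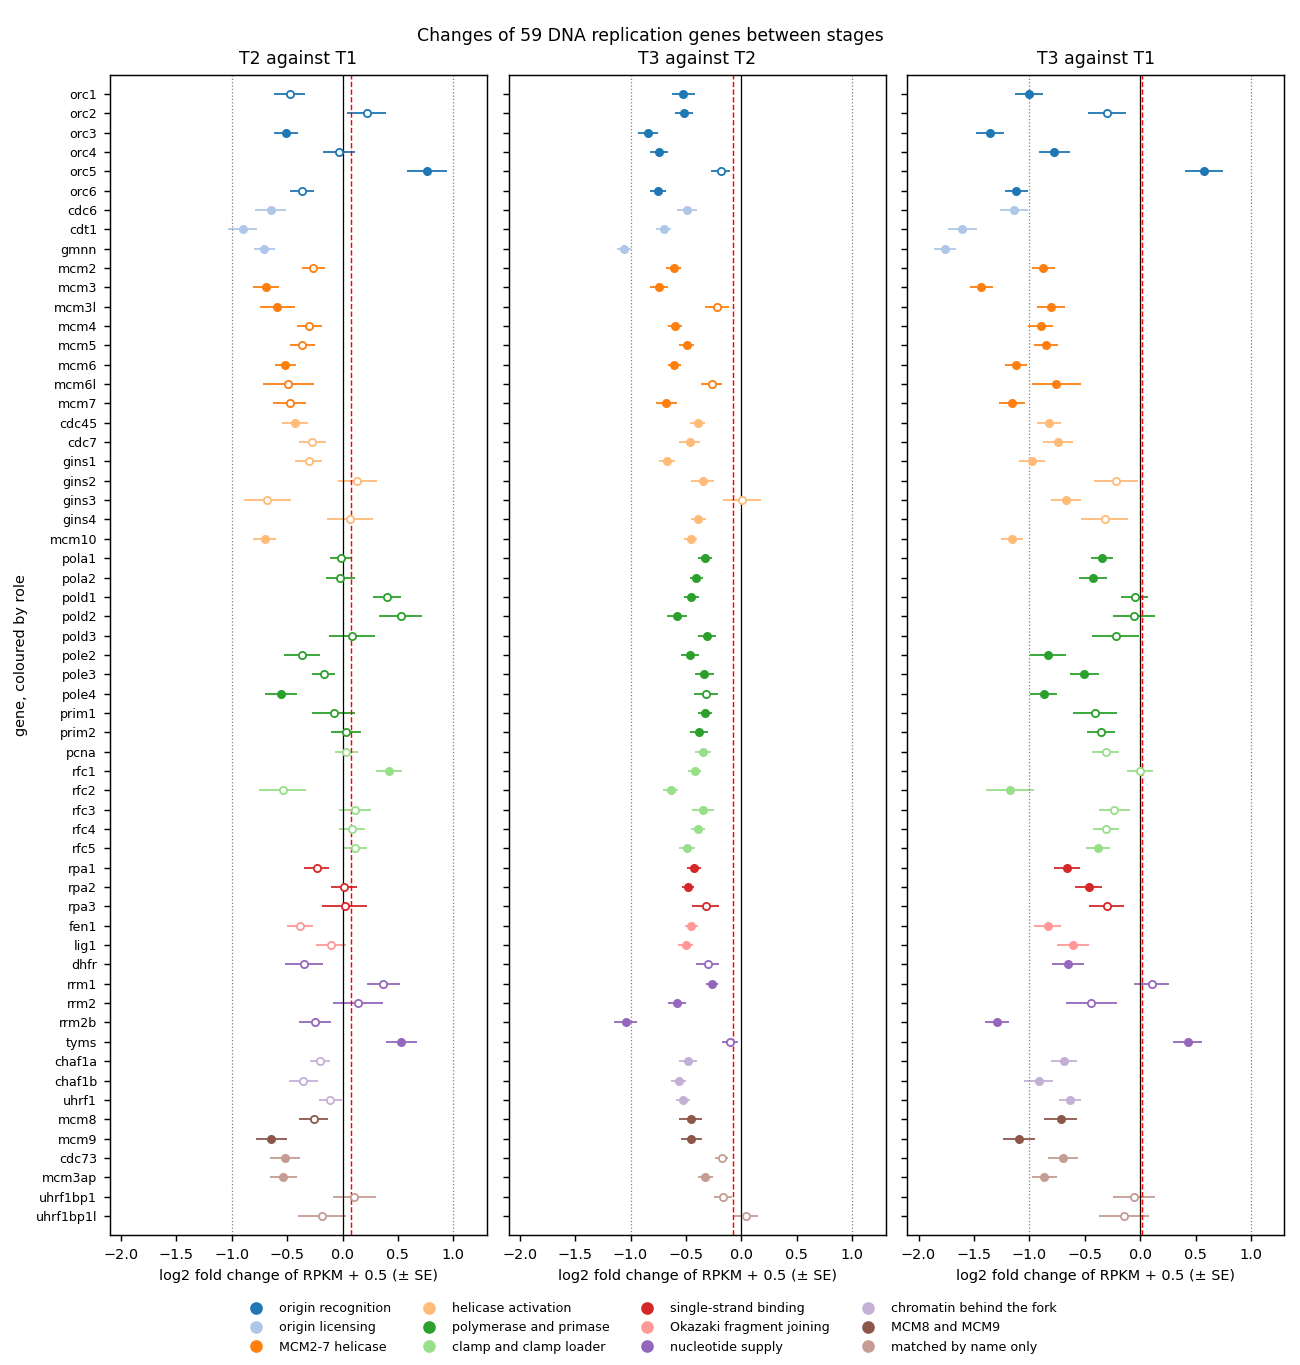
Log2 fold change of RPKM + 0.5 with its standard error for each replication gene in the 3 comparisons, coloured by role. Filled points have an adjusted p under 0.05 in limma. Dotted lines mark log2 fold changes of -1 and 1, and the red dashed line is the median of all mRNAs. From T1 to T3, *gmnn* is at -1.76 and *cdt1* at -1.60, and *orc5* is at 0.58.

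Of the 12 roles into which the genes were sorted, origin licensing kept the smallest part of its T1 share, and *cdc6*, *cdt1* and *gmnn* fell in all 3 comparisons and all passed the fold threshold from T1 to T3. *gmnn* (chr19:31585349-31590775, GRCz11) encodes geminin, the inhibitor of Cdt1. Its RPKM was 55.2 and 56.4 at T1, then 34.1 and 33.9 at T2, then 15.7 and 16.5 at T3. The stages did not overlap, and the log2 fold change was -0.71 ± 0.10 (SE, adjusted *p* = 0.00672) from T1 to T2, -1.06 ± 0.06 (adjusted *p* = 0.0001) from T2 to T3 and -1.76 ± 0.10 (adjusted *p* = 0.000475) from T1 to T3. Among mRNAs ordered by mean RPKM at the deposited lengths, *gmnn* went from place 1163 at T1 to 1766 at T2 and 3397 at T3.

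*cdt1* (chr7:55518520-55530654), whose protein brings MCM2-7 to origins, measured 17.6 and 20.8 RPKM at T1, then 9.91 and 10.1 at T2, then 5.75 and 6.15 at T3. Each later stage lay below the one before in both libraries, with -1.60 ± 0.13 on the log2 scale from T1 to T3 (adjusted *p* = 0.0011). *cdc6* (chr11:11783470-11792696), the ATPase that acts beside ORC, measured 10.99 and 9.66 RPKM at T1, then 6.83 and 5.99 at T2, then 4.48 and 4.33 at T3. Its change from T1 to T3 was -1.14 ± 0.12 (adjusted *p* = 0.00224), also without overlap. The ratio of *gmnn* to *cdt1*, an inhibitor and its target, was 3.14 and 2.72 at T1, then 3.45 and 3.37 at T2, then 2.72 and 2.69 at T3, so it was highest at T2 and overlapped between T1 and T3. The size of this ratio depends on the length used for *gmnn*, which is the same at every stage.

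**Figure D4:**
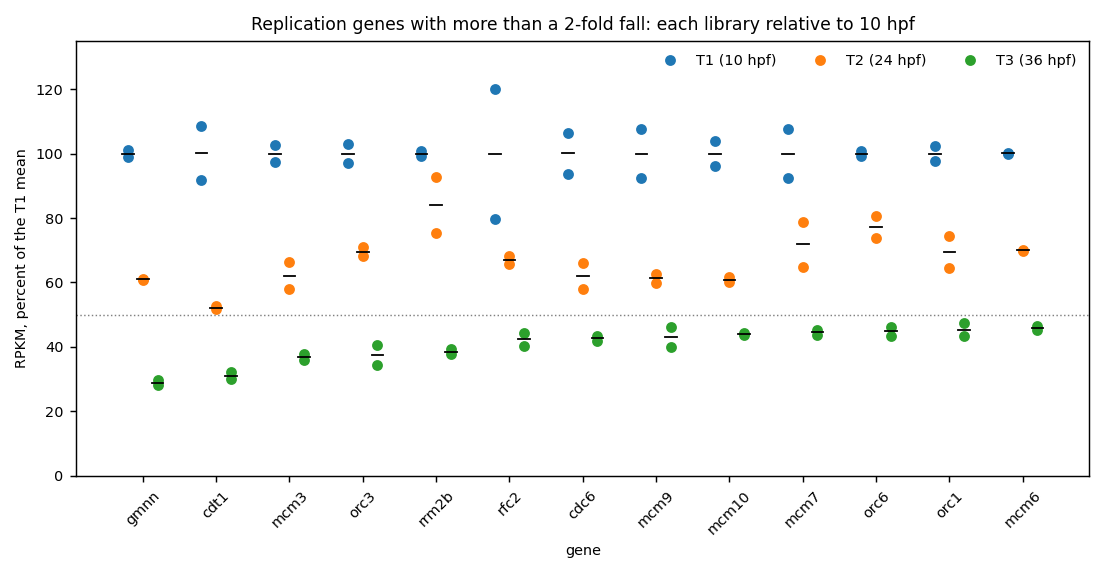
RPKM of each library in percent of the T1 mean for the 13 replication genes that passed the fold threshold from T1 to T3, ordered by their T3 mean; bars mark stage means and the dotted line is at 50%. The T3 means lie between 28.8% (*gmnn*) and 45.9% (*mcm6*), and the T1 libraries of *rfc2* stand apart from each other.

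The origin recognition complex has 6 subunits. From T1 to T3, *orc1*, *orc3*, *orc4* and *orc6* fell, *orc5* rose, and *orc2* had a log2 fold change of -0.30 ± 0.17 (adjusted *p* = 0.205). *orc3* (chr17:49313496-49339711) measured 18.0 and 17.0 RPKM at T1, then 12.4 and 11.9 at T2, then 6.02 and 7.09 at T3. Its stages did not overlap and it changed by -1.35 ± 0.13 from T1 to T3 (adjusted *p* = 0.00156). *orc6* (chr7:41812513-41821361) measured 21.4 and 21.2 RPKM at T1, then 17.1 and 15.7 at T2, then 9.25 and 9.85 at T3. In the deposited values most of its fall lay between T2 and T3, at -0.75 ± 0.07 (adjusted *p* = 0.000559) of -1.12 ± 0.10 in all. With centring on the median of all mRNAs its change from T1 to T2 was -0.70 in place of -0.36. The difference between the steps was not tested.

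*orc1* (chr6:33931740-33947876), the ATPase subunit that in mammals is degraded after S phase begins, measured 5.43 and 5.19 RPKM at T1, then 3.95 and 3.42 at T2, then 2.51 and 2.30 at T3. It lay close to the fold threshold, at -1.001 ± 0.126 (adjusted *p* = 0.00331), and the call was lost without T1 replicate 1 (-0.97) or T3 replicate 2 (-0.95), with a pseudocount of 1 and with centring on mRNAs of at least 1 RPKM. *orc5* went the other way. Chosen here after its values were seen, it measured 2.15 and 1.57 RPKM at T1, then 3.52 and 3.42 at T2, then 3.04 and 2.94 at T3. Both later stages lay above T1, with 0.76 ± 0.18 from T1 to T2 (adjusted *p* = 0.0284) and 0.58 ± 0.17 from T1 to T3 (adjusted *p* = 0.0427), and the log2 scale with a pseudocount understates changes at such levels (the T2 and T3 means of RPKM were 186.7% and 160.9% of the T1 mean). *orc5* was the lowest subunit at T1 and T2, where the ratio of *orc6* to it was 9.996 and 13.5 and then 4.88 and 4.61, and at T3 the lowest subunit depends on the length used for *orc1*.

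The MCM2-7 helicase took the largest share of the reads among these roles, 0.249% ± 0.0012 at T1 and 0.118% ± 0.0016 at T3, and all of its 6 subunits fell from T1 to T3, to between 36.8% and 55.2% of the T1 mean. *mcm6* (chr6:12968146-12985390) measured 217.0 and 216.3 RPKM at T1, then 151.3 and 151.6 at T2, then 100.5 and 98.3 at T3. The 2 libraries of each stage nearly coincided, and the changes were -0.52 ± 0.09 (adjusted *p* = 0.0138) from T1 to T2 and -0.60 ± 0.06 (adjusted *p* = 0.000516) from T2 to T3. *mcm3* (chr20:34770280-34783743) measured 158.4 and 150.2 RPKM at T1, then 102.2 and 89.2 at T2, then 55.4 and 58.3 at T3, and had the largest change of the 6 subunits from T1 to T3, -1.43 ± 0.10 (adjusted *p* = 0.000778).

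*mcm7* (chr14:93967-102282) measured 131.4 and 152.7 RPKM at T1, then 111.9 and 92.2 at T2, then 62.3 and 64.4 at T3. The stages did not overlap, and it changed by -1.16 ± 0.12 from T1 to T3 (adjusted *p* = 0.00201). With quantile normalization *mcm6* and *mcm7* no longer passed the fold threshold. *mcm2*, among the 3 replication genes with the highest mean by the deposited lengths (an order that the lengths used for *chaf1a* and *lig1* leave uncertain), measured 150.6 and 158.0 RPKM at T1, then 134.5 and 122.8 at T2, then 83.4 and 84.6 at T3. It stayed short of the fold threshold, at -0.87 ± 0.10 (adjusted *p* = 0.00252) from T1 to T3, and *mcm4* and *mcm5* had -0.90 and -0.85. The subunits form rings in equal number. Their RNA levels did not keep 1 proportion, as *mcm3* had a mean near those of *mcm2* and *mcm5* at T1 (154.3, 154.3 and 155.9 RPKM) and a lower one at T3 (56.8 against 84 and 85.96). *mcm6* was the highest and *mcm4* the lowest in every library, with a ratio of 3.66 and 4.12 at T1, then 3.21 and 3.49 at T2, then 3.42 and 3.27 at T3.

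The symbols *mcm3l* and *mcm6l* name paralogs of *mcm3* and *mcm6*, and both were under 1 RPKM in every library at the deposited lengths. Those lengths are 2 times (*mcm3l*) and 3 times (*mcm6l*) the exon bases on the first sequence of each gene. *mcm3l* measured 0.525 and 0.684 RPKM at T1, then 0.28 and 0.187 at T2, then 0.118 and 0.141 at T3, from 122 and 165 reads at T1 down to 31 and 39 at T3. Its T3 mean was 21.4% of that of T1, while on the scale with a pseudocount of 0.5 the change was -0.81 ± 0.13 (adjusted *p* = 0.00655). *mcm6l* measured 0.229 and 0.627 RPKM at T1, then 0.178 and 0.117 at T2, then 0.0363 and 0.037 at T3, the last from 14 and 15 reads. The T1 libraries of *mcm6l* lay far apart, and its change from T1 to T3 was -0.76 ± 0.22 (adjusted *p* = 0.0424). By the deposited lengths *mcm6* stood at 345 to 948 times the RPKM of *mcm6l* at T1 and at 2657 to 2770 times at T3. How reads that fit both paralogs were counted is not stated in the sources used here.

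Among the factors that activate the helicase, *mcm10*, *cdc45*, *cdc7*, *gins1* and *gins3* fell from T1 to T3, and *mcm10* passed the fold threshold. *mcm10* (chr4:7851277-7869731), which acts when the loaded helicase begins to unwind, measured 38.1 and 41.1 RPKM at T1, then 23.8 and 24.5 at T2, then 17.3 and 17.6 at T3. More of its change lay in the earlier step, -0.70 ± 0.10 (adjusted *p* = 0.00815) against -0.46 ± 0.06 (adjusted *p* = 0.00163) from T2 to T3, and the difference between the steps was not tested. GINS has 4 subunits, and differences between their changes were not tested. *gins1* ended at 48% of its T1 mean and *gins3* at 61.6%, while *gins2* (84.5%) and *gins4* (77.5%) did not pass the test from T1 to T3 and had T1 libraries 0.41 and 0.56 apart on the log2 scale. *gins3* differed most between the T2 libraries, at 8.41 and 12.4 RPKM. *cdc7*, the kinase subunit, had a mean at T3 of 57% of that at T1 and *cdc45* of 55.2%.

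**Figure D5:**
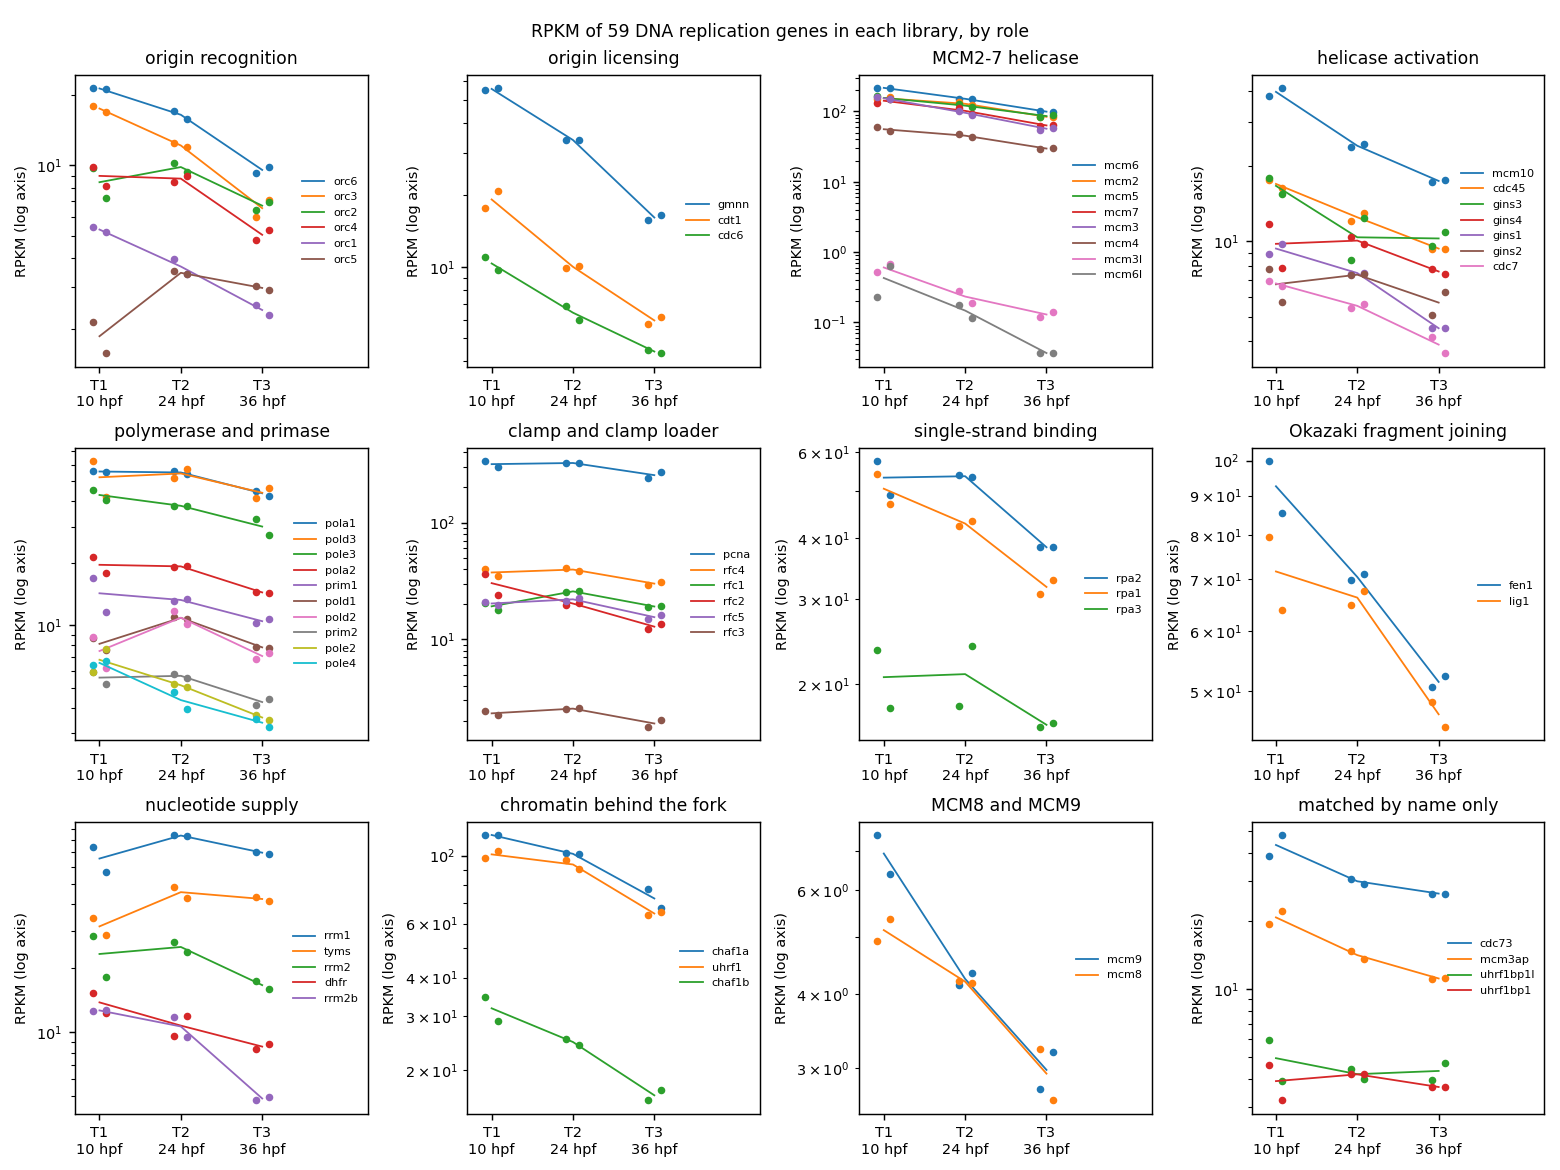
RPKM (log axis) of the 59 replication genes in each library at T1, T2 and T3, with a panel per role; points are libraries and lines join stage means. Licensing and MCM2-7 genes have a lower mean at each later stage, whereas *pcna*, *rfc1*, the *pold* genes and *rrm1* have their highest mean at T2. The T1 and T2 libraries of *pcna* and *pold3* overlap, and with centring on the median of all mRNAs T2 lay below T1 in both.

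Most polymerase and primase genes passed the test from T2 to T3 and not from T1 to T2. Their median log2 fold change was -0.02 in the earlier step and -0.36 in the later one. The standard errors of all 10 were larger in the earlier step. Centring on the median of all mRNAs moved the values of that step by -0.33, and the difference between the steps was not tested. Of the 10 genes, 1 fell from T1 to T2 (*pole4*), 9 over the next step and 5 from T1 to T3 (*pola1*, *pola2*, *pole2*, *pole3* and *pole4*), with none past the fold threshold. Of all mRNAs, 14.1%, 25.5% and 24.6% fell in the same order. Among mRNAs with a mean above 2 RPKM these shares were 20.1%, 35.4% and 33.8%. *pold1*, the catalytic subunit of polymerase delta, measured 8.72 and 7.56 RPKM at T1, then 11 and 10.76 at T2, then 7.89 and 7.77 at T3. T2 stood above the other stages in both libraries, T1 and T3 overlapped, and the changes were 0.40 ± 0.13 (adjusted *p* = 0.0614) from T1 to T2 and -0.45 ± 0.07 (adjusted *p* = 0.00252) from T2 to T3. *pold2*, its second subunit, had the same order, with 8.80 and 6.22 RPKM at T1, then 11.7 and 10.1 at T2, then 6.85 and 7.35 at T3. Its change from T2 to T3 was -0.58 ± 0.09 (adjusted *p* = 0.0031).

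From T1 to T3 the values of *pold1* and *pold2* were -0.05 ± 0.12 and -0.06 ± 0.19, and their sign turned with centring on mRNAs of at least 1 RPKM. The catalytic subunit of polymerase alpha, *pola1*, stayed between 54.3 and 55.9 RPKM in the 4 libraries of T1 and T2 and was at 44.9 and 42.5 at T3, a change of -0.33 ± 0.06 from T2 (adjusted *p* = 0.0066). Subunits of polymerase epsilon, *pole2*, *pole3* and *pole4*, were at 52.5%, 70.3% and 51.3% of their T1 means at T3. The catalytic subunit *pole* is outside the rule and is not among them. Those of delta, *pold1*, *pold2* and *pold3*, were at 96.2%, 94.6% and 84.1%. The primase genes *prim1* and *prim2* were at 73.2% and 76.2% and did not pass the test from T1 to T3, and *prim1* differed by 0.52 on the log2 scale between the T1 libraries.

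*pcna*, the sliding clamp, was the most abundant replication gene. It measured 334.4 and 298.5 RPKM at T1, then 321.8 and 325.7 at T2, then 239.7 and 269.8 at T3. Both T3 libraries lay below the other 4, with -0.35 ± 0.08 from T2 to T3 (adjusted *p* = 0.0114) and -0.31 ± 0.13 from T1 to T3 (adjusted *p* = 0.0927), where the T1 libraries were more spread. Among mRNAs *pcna* held place 183 at T1, then 178 at T2, then 206 at T3, while *mcm6* went from place 298 to 411 and 576.

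The 5 subunits of the clamp loader fell from T2 to T3, and *rfc2* passed the fold threshold from T1 to T3. *rfc2* (chr21:25206289-25213567) measured 36.4 and 24.2 RPKM at T1, then 19.9 and 20.6 at T2, then 12.2 and 13.5 at T3. The T1 libraries differed by 0.58 on the log2 scale, and the change of -1.18 ± 0.22 (adjusted *p* = 0.0102) from T1 to T3 lost its call without T1 replicate 1, where it was -0.89. *rfc1*, the large subunit, measured 20.5 and 17.9 RPKM at T1, then 25.7 and 25.9 at T2, then 18.96 and 19.27 at T3. It rose by 0.42 ± 0.12 from T1 to T2 (adjusted *p* = 0.0432) and fell by 0.42 ± 0.06 from T2 to T3 (adjusted *p* = 0.00203), with T1 and T3 overlapping at a change of -0.0021 ± 0.12 whose sign turned under other scalings. *rfc3*, *rfc4* and *rfc5* ended at 81.9%, 80.3% and 76.4% of T1. Exons of 7 replication genes share bases with a gene on the opposite strand, and the largest parts are 38.9% of *rfc5* (*wsb2*), 33.4% of *gins1* (*ninl*), 11.9% of *rpa2* (*themis2*) and 11.8% of *rfc2* (*dkey-183i3.6*). Reads of these pairs could not be told apart if strand was not used in counting.

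RPA, which covers exposed strands, went from T1 to T3 with *rpa1* at 62.8%, *rpa2* at 71.9% and *rpa3* at 79.8% of the T1 mean. *rpa1* and *rpa2* fell and *rpa3* did not pass the test, with 23.5 and 17.9 RPKM at T1, then 18.1 and 23.9 at T2, then 16.4 and 16.7 at T3. The enzymes that join Okazaki fragments both fell between T2 and T3 and over the whole interval. *fen1*, the flap nuclease, ended at 55.6% of T1 and *lig1*, DNA ligase I, at 65.1%.

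Genes of nucleotide supply went in both directions. *rrm2b* and *tyms* mark the ends, at 38.6% and 134.5% of their T1 means at T3. *rrm2b* (chr19:32918131-32928470) encodes the ribonucleotide reductase subunit that in mammals is induced by p53 and also serves cells outside S phase. It measured 12.6 and 12.8 RPKM at T1, then 11.7 and 9.54 at T2, then 4.78 and 4.98 at T3. T3 was well below the other stages, with -1.04 ± 0.11 from T2 (adjusted *p* = 0.000639) and -1.29 ± 0.11 from T1 (adjusted *p* = 0.00113). *gmnn* and *rrm2b*, the 2 genes past the fold threshold from T2 to T3, lie 1327356 bases apart on chromosome 19, and the 59 genes are spread over 24 chromosomes with at most 4 on each.

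*rrm2*, the small subunit of ribonucleotide reductase that is made in S phase, measured 28.4 and 18.3 RPKM at T1, then 26.5 and 23.8 at T2, then 17.4 and 15.9 at T3. After *mcm6l* it had the largest difference between the T1 libraries of the 59 genes, 0.62 on the log2 scale, and fell from T2 to T3 by 0.58 ± 0.08 (adjusted *p* = 0.00202). The ratio of *rrm2* to *rrm2b* was 2.26 and 1.43 at T1, then 2.26 and 2.497 at T2, then 3.64 and 3.19 at T3, so the T3 libraries lay above the others. The size of this ratio depends on the length used for *rrm2b*, which is the same at every stage. *rrm1*, the large subunit, measured 74.2 and 56.9 RPKM at T1, then 84.7 and 83.5 at T2, then 70.5 and 69.2 at T3. T1 and T3 overlapped, and the change of 0.10 ± 0.16 (adjusted *p* = 0.609) turned its sign with centring on all mRNAs.

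*tyms* encodes thymidylate synthase, which makes dTMP for DNA. Chosen here after its values were seen, it measured 34.4 and 28.5 RPKM at T1, then 48.1 and 43.0 at T2, then 43.4 and 41.2 at T3. Both later stages lay above T1, with 0.53 ± 0.14 from T1 to T2 (adjusted *p* = 0.0361) and 0.43 ± 0.13 from T1 to T3 (adjusted *p* = 0.0453), and the T2 and T3 libraries overlapped. Neither *tyms* nor *orc5* passed the test from T1 to T3 with no filter on low values, with centring on all mRNAs or without either T3 library, and none of *orc5*, *rfc1* and *tyms* passed it from T1 to T2 with that centring or without either T2 library. *dhfr*, the dihydrofolate reductase that returns the folate used by Tyms, had the other direction. It fell from T1 to T3 to 62% of its T1 mean (-0.65 ± 0.14, adjusted *p* = 0.0174).

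The genes that restore chromatin behind the fork fell between T2 and T3 and over the whole interval. *chaf1a* and *chaf1b*, subunits of the histone chaperone CAF-1, ended at 62.1% and 52% of T1, and *uhrf1*, which recognizes newly copied DNA and brings Dnmt1 to it, at 64.2%. *mcm8* and *mcm9* form a helicase known for DNA repair. *mcm9* (chr20:41801604-41839643) measured 7.45 and 6.40 RPKM at T1, then 4.15 and 4.34 at T2, then 2.76 and 3.19 at T3. Its stages did not overlap and it changed by -1.09 ± 0.14 from T1 to T3 (adjusted *p* = 0.00394), with the call lost without T1 replicate 1 (-0.99), with a pseudocount of 1 (-0.99) and with centring on mRNAs of at least 1 RPKM (-0.98), and *mcm8* changed by -0.72 ± 0.15 (adjusted *p* = 0.0141).

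Of the 4 genes matched by name alone, *cdc73* and *mcm3ap* fell from T1 to T2 and were at T3, where they had also fallen against T1, at 61% and 53.7% of the T1 mean. *uhrf1bp1* and *uhrf1bp1l* did not pass the test in any comparison. Without these 4 genes, 13 of 55 passed the fold threshold from T1 to T3 and 2 from T2 to T3, and the median log2 fold change from T1 to T3 stayed at -0.69.

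Other genes of the same phase were read from a list of S phase partners (E2F factors, cyclins E, and genes of origin firing, fork stability, nucleotide and histone supply and DNA methylation), of which 43 were found. *prim2* is on that list too and is counted among the 59 genes alone, which left 42. Their share of the reads in genes was 0.393% ± 0.013 at T1, then 0.332% ± 0.0051 at T2, then 0.255% ± 0.0052 at T3, or 64.9% of T1 at the end. Of the 42, 13 fell and 1 rose from T1 to T2, 30 fell and 1 rose from T2 to T3, and 27 fell and 1 rose from T1 to T3. Of all mRNAs, 14.1%, 25.5% and 24.6% fell and 24%, 18% and 29.3% rose in the same order. From T1 to T3, 4 of the 42 passed the fold threshold downward, against 8.76% of all mRNAs. Among mRNAs with a mean above 2 RPKM this share was 12.2%, so the 4 calls are near background. *ccne1*, cyclin E1, which drives entry into S phase, measured 8.05 and 6.99 RPKM at T1, then 2.52 and 2.504 at T2, then 2.19 and 2.42 at T3. Its change lay nearly all in the earlier step, at -1.41 ± 0.14 (adjusted *p* = 0.0033) of -1.52 ± 0.14 in all. The others were *e2f3*, an E2F transcription factor of S phase genes (-1.05 ± 0.19), *dbf4*, the activator of Cdc7 (-1.05 ± 0.13), and *hells*, a chromatin remodeller that serves DNA methylation (-1.03 ± 0.10).

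A list of 38 mitosis genes was read in the same way. Its share of the reads was 0.981% ± 0.040 at T1, then 0.916% ± 0.0052 at T2, then 0.75% ± 0.018 at T3, or 76.5% of T1. None of its genes passed the fold threshold in limma in any comparison. Of all mRNAs, 3.45%, 2.11% and 8.76% passed it downward from T1 to T2, T2 to T3 and T1 to T3. In the same order, 14.1%, 25.5% and 24.6% of all mRNAs fell and 24%, 18% and 29.3% rose. From T1 to T3, 28 of the 38 fell and the median log2 fold change was -0.45, and 28 had an unadjusted *p* under 0.05 downward. From T2 to T3, 29 of 37 fell and 1 rose, with 33 downward at an unadjusted *p* under 0.05. From T1 to T2, 3 of 37 fell and 1 rose, with 9 downward and 2 upward at that *p*. The shares of all mRNAs at an unadjusted *p* were not counted. The median log2 fold change of these 37 was -0.22 in this earlier step and -0.27 in the later one. Both T2 libraries lay below both T1 libraries in 29 of the 37 and above them in 4. For T3 against T2 these counts were 35 and 1. The shares of all mRNAs were 31.8% below and 42% above for T2 against T1, and 44.7% and 29.9% for T3 against T2. Over mRNAs of at least 1 RPKM, the SD between libraries, taken as for the 59 genes, was 0.27 at T1 and 0.11 at T2 and T3. Whether this spread lowered the count of falls in the earlier step was not tested.

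The muscle and neuron lists moved against the replication genes in the same libraries. All 19 muscle genes passed the fold threshold upward from T1 to T2 and from T1 to T3, and 15 of 19 from T2 to T3. *myhz1.1*, a fast myosin heavy chain, went from 2.13 and 2.44 RPKM at T1 to 804.2 and 930.8 at T2, and reached 3490 and 3755 at T3. Of 16 neuron genes, 15, 11 and 16 passed it upward from T1 to T2, T2 to T3 and T1 to T3, and their summed share was 0.023% ± 0.0057 at T1, then 0.10% ± 0.0099 at T2, then 0.211% ± 0.0079 at T3. The list of neural progenitor genes held 0.115% ± 0.0069, 0.134% ± 0.00044 and 0.158% ± 0.0026. Its members went in both directions: of 14 tested from T1 to T3, 6 fell and 4 rose, with 4 past the fold threshold downward (*her6*, *her9*, *sox19a* and *sox19b*) and 2 upward (*fabp7a* and *nes*), and a median log2 fold change of -0.15. Of all mRNAs, 24.6% fell and 29.3% rose from T1 to T3, with 8.76% past the fold threshold downward. Upward, 12.8%, 4.03% and 17.2% of all mRNAs passed it from T1 to T2, T2 to T3 and T1 to T3. The part of the makeup of the embryo in the levels of the replication genes was not tested, and stage and the makeup of the embryo cannot be told apart in these libraries.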

How the data were processed

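Reads of 6 RNA libraries (2 per stage) were processed by the authors, who aligned them with STAR 2.5.3a and counted them with featureCounts (Subread 1.5.1); the labels name the GRCz11 genome. The RPKM values were made by the authors and are used as deposited. No source used here states if strand entered the counting. All values came out as whole reads within 0.01 reads, which gave the reads per gene.

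The replication genes, the gene lists and the roles were chosen with earlier results of these data known. Here log2(RPKM + 0.5) of mRNAs with at least 0.1 RPKM in 2 of the 4 libraries of a comparison went into limma 3.58.1 (R 4.3.3, statmod 1.5.0), fitted with lmFit and moderated by eBayes with trend and robust, with Benjamini-Hochberg adjustment over all mRNAs tested. A call needed an adjusted *p* under 0.05 and a log2 fold change beyond 1 in size. On this scale the fold changes of low genes come out too small. The test was tested on simulated data. Tables and plots were made with Python 3.11.15, numpy 2.4.6, pandas 2.3.3 and matplotlib 3.10.9.

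Values per library are given for each gene called in a comparison, the 3 with the highest mean, and the 4 above 5 RPKM with the smallest change from T1 to T3. Genes outside the rule come from the lists, up to 4 called ones per list. Values of further genes were given where their libraries lay apart or a count of 5 or fewer held them, chosen after the values were seen. Alternatives covered the pseudocount, the filter, the scaling, the thresholds and the moderation, all 6 libraries in the fit, a replicate term, and single libraries left out.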

Additional observations from a re-analysis of the deposited data

How the results depend on the processing

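In the order T1 to T2, T2 to T3 and T1 to T3, 0, 2 and 13 replication genes passed the fold threshold downward and none upward, 13, 48 and 40 fell at any fold, and 3, 0 and 2 rose. With no minimum fold the calls are these last counts, 13, 48 and 40 lower and 3 and 2 higher. A pseudocount of 0.1 gave 1 call from T1 to T2, and a pseudocount of 1 gave 1 from T2 to T3. Centring on the median of all mRNAs tested gave 5 and 33 calls lower from T1 to T2 and from T1 to T3, 35 falls and 0 rises from T1 to T2, 0 rises from T1 to T3, and medians of -0.58 and -1.04. Over all mRNAs it gave 1976 higher and 2070 lower calls from T1 to T2, in place of 2953 and 795. Centring on mRNAs of at least 1 RPKM, chosen after seeing the data, gave a median of -0.57 from T1 to T3, and 4459 higher and 1582 lower calls over all mRNAs. Quantile normalization gave 1 call and a median of -0.34 from T2 to T3, a median of -0.58 and 1 rise from T1 to T3, and 2119 higher and 1422 lower calls over all mRNAs from T1 to T2. All 6 libraries in the fit gave 22 falls and 5 rises from T1 to T2 and 31 falls from T2 to T3. Without trend and robust moderation 1 gene rose from T1 to T2 and 1 from T1 to T3, and with no filter on low values 0 rose from T1 to T3. The causes of these moves were not tested. Leaving out single libraries, where the lone library of a stage is assumed to vary like the other stage, gave 0 to 1 calls, 0 to 27 falls and 0 to 12 rises from T1 to T2, 1 to 2 calls and 43 to 45 falls from T2 to T3, and 12 to 14 calls, 21 to 52 falls and 0 to 3 rises from T1 to T3; the medians ranged from -0.25 to -0.20, -0.45 to -0.44 and -0.73 to -0.66. Of the 13 calls from T1 to T3, *gmnn*, *cdt1*, *mcm3*, *orc3*, *rrm2b*, *mcm10*, *cdc6* and *orc6* held in all 15 alternatives that kept both thresholds.

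Libraries of different stages share the replicate numbers 1 and 2. The deviations of same-numbered libraries from their stage means correlated at 0.011, -0.068 and -0.052 over 11894 genes, so no shared shift by number was seen. These values cannot tell whether same-numbered libraries share a clutch or a preparation, which no source used here states. With the replicate number as a block, the calls stayed at 0, 2 and 13, 10, 51 and 37 genes fell, and 2, 0 and 0 rose.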
